A study of Rattus norvegicus with 6 samples.

Results

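The PARP family comprises enzymes that transfer ADP-ribose from NAD+ to proteins or nucleic acids, and 10 genes were followed in rat cerebral arteries: Parp1, Parp2, Parp3, Parp6, Parp8, Parp9, Parp10, Parp12, Parp14 and Dtx3l, the last a ubiquitin ligase that works as a partner of PARP9. A member was read from the array probe set annotated to that gene alone, and among several such probe sets the one with the highest mean over all 6 arrays would be kept. By this rule 8 of the 10 members were measured, out of 18166 genes in all, and Parp10 and Parp12 had no such probe set in the annotation used here. The arteries were taken from male rats 6 hours after subarachnoid haemorrhage (SAH), which is bleeding beneath the membranes that cover the brain (3 arrays, numbered 1, 4 and 5), or from male sham-operated rats (3 arrays, numbered 6, 7 and 8). The labels give no strain, age or SAH method, no time after surgery for the sham rats, and do not say whether an array held 1 rat or several. Since nothing says that the samples came from separate animals, the p-values measure only the spread between these samples.

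PARP1 and PARP2 bind broken DNA and build chains of ADP-ribose that recruit repair proteins, and PARP3 acts at double-strand breaks. PARP1 is also known in brain injury for a form of cell death that follows when it is strongly activated. The other PARP enzymes followed here attach single ADP-ribose units, except that PARP9 has little such activity of its own, and PARP9, PARP10, PARP12, PARP14 and DTX3L are known to be induced by interferons in human and mouse cells. PARP9 and DTX3L form a complex that takes part in interferon signalling, and PARP14 has been described as a cofactor of STAT6 in mouse lymphocytes.

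All 3 measured interferon-linked members, Parp14, Parp9 and Dtx3l, rose after SAH, by 2.61- to 3.35-fold. Of the 3 DNA-repair members, Parp3 rose 1.81-fold, whereas Parp1 and Parp2 did not pass the test and differed by 0.26 and -0.22 on the log2 scale, SAH minus sham. Parp6 and Parp8, which were placed in neither class, did not pass either. For comparison, 1.29% of the 18166 genes were called in either direction, 0.963% as higher and 0.330% as lower. An unadjusted p under 0.05 was reached by 3385 of them, or 18.6%, which is the background for the unadjusted counts given below. Calls required an adjusted p under 0.05 in limma, a linear model that shares variance information over all probe sets. The array values are log2 intensities after RMA normalization, so a difference of 1 is a doubling of signal and levels of different genes cannot be set against each other.

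Promoter sequences are shown for Parp14, Dtx3l and Parp3, which rose, because they hold, or lack, the motifs through which interferon signals are known to act. The window of Parp9, which also rose, held neither motif and is not printed. The windows are those of RefSeq on the GRCr8 rat assembly, 250 bases before to 50 bases after a gene's annotated start, written 5′ to 3′ along the gene's strand. Capitals mark matches on either strand to the interferon-stimulated response element (ISRE, searched as GAAA, any 2 bases and GAAA) and to the gamma-activated site (GAS, searched as TTC, any 3 bases and GAA). Parp14 is on the plus strand at chr11:78407884-78408183, Dtx3l on the plus strand at chr11:78319975-78320274, and Parp3 on the minus strand at chr8:115995423-115995722.
Parp14: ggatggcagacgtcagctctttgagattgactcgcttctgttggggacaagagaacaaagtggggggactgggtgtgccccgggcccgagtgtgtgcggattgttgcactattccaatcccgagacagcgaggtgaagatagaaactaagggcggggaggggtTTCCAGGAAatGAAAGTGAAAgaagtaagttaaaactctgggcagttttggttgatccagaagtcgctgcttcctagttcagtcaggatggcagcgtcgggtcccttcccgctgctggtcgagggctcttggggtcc
Dtx3l: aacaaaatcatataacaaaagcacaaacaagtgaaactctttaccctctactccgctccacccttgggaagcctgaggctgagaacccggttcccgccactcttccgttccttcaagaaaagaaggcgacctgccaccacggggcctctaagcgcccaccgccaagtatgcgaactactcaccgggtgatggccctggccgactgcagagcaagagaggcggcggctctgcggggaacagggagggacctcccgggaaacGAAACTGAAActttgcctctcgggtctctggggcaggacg
Parp3: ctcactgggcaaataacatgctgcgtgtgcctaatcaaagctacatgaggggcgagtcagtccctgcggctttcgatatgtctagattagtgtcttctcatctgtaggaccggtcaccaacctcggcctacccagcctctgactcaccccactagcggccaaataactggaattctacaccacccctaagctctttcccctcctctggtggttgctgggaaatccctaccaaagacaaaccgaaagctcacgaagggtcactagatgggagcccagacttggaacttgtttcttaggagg
In Parp14 the ISRE match covered positions -76 to -67 relative to the start, and a GAS match lay beside it at -87 to -79, without overlap. In Dtx3l the ISRE match covered bases 11 to 20 after the start. The Parp3 window held neither motif. Of 9 members with a window in the table, Parp12, which was not measured, also held an ISRE match, at -18 to -9, and Parp1, Parp2, Parp6, Parp8 and Parp9 held no match to either motif. Over all 33469 windows of this length, 3.92% held an ISRE match and 8.87% a GAS match. A match is a string of letters and was not tested for binding, and the window of Parp10 was not analysed here. In this assembly Parp9, Dtx3l and Parp14 are neighbours on chromosome 11, with 1 pseudogene annotated between Dtx3l and Parp14. Parp9 and Dtx3l run in opposite directions, the ends of their annotated spans overlap at the Dtx3l start, and the Parp9 window of the table lies inside the gene rather than at this shared end.

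The arrays had median log2 values between 7.31 and 7.37 and correlated with r from 0.970 to 0.991, a description over probe sets that share each array. SAH array 1 stood nearer to the sham mean than SAH arrays 4 and 5 for every measured member, as the values below show. Of the markers of arterial smooth muscle, Des and Tagln averaged 13.26 and 13.43 in SAH arteries and 13.47 and 13.58 in sham arteries. Lmod1 averaged 9.46 in SAH and 9.72 in sham arteries. None of these differences was called (limma adjusted p = 0.390, 0.524 and 0.351 for Des, Tagln and Lmod1), and Smtn, a marker that was called, is treated below. Dcn, a fibroblast marker, averaged 13.05 in both groups, so high signal was not particular to smooth muscle markers. Acta2 and Cnn1 had no usable probe set here.

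Parp14, a macrodomain-containing enzyme (probe set 17666064), read 11.42, 12.06 and 12.004 in SAH arrays 1, 4 and 5, against 9.88, 10.05 and 10.31 in sham arrays 6, 7 and 8. The groups did not overlap, as was the case, with SAH higher, for 11.4% of all genes, and the lowest SAH value lay more than 1 log2 unit above the highest sham value. The mean was 11.83 ± 0.36 in SAH and 10.08 ± 0.22 in sham arteries (SD, n = 3 each), a difference of 1.75 ± 0.20 (SE) or 3.35-fold (limma adjusted p = 0.0210). Among all genes, 0.479% had a larger difference.

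Parp9, the partner of DTX3L (probe set 17669373), read 11.22, 11.96 and 11.90 in the SAH arrays, against 10.08, 10.21 and 10.32 in the sham arrays. SAH array 1 was again the lowest of its group and still above every sham array. The difference was 1.49 ± 0.21 (SE), or 2.81-fold, with means of 11.69 ± 0.41 in SAH and 10.20 ± 0.12 in sham arteries (SD, n = 3 each; limma adjusted p = 0.0359). Dtx3l, the ubiquitin ligase (probe set 17666056), read 11.31, 11.83 and 11.80 in the SAH arrays, against 10.18, 10.23 and 10.37 in the sham arrays. Its groups did not overlap. Its means of 11.65 ± 0.29 in SAH and 10.26 ± 0.10 in sham arteries (SD, n = 3 each) gave a difference of 1.39 ± 0.16 (SE), or 2.61-fold (limma adjusted p = 0.0211). The 2 genes overlap at their starts, and how the array's probes divide that stretch is not given in the sources used here.

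Parp3, an enzyme of double-strand break repair (probe set 17855374), read 11.08, 11.41 and 11.41 in the SAH arrays, against 10.41, 10.54 and 10.37 in the sham arrays. The groups did not overlap, and SAH array 1 was the lowest SAH array here too. The mean was 11.30 ± 0.19 in SAH and 10.44 ± 0.09 in sham arteries (SD, n = 3 each), a difference of 0.86 ± 0.12 (SE) or 1.81-fold (limma adjusted p = 0.0416). Among all genes, 2.22% had a larger difference.

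Parp1, the main sensor of DNA strand breaks (probe set 17682574), read 9.99, 10.44 and 10.36 in the SAH arrays, against 9.94, 10.05 and 10.001 in the sham arrays. SAH array 1 lay within the sham range, while SAH arrays 4 and 5 lay above it. The means were 10.26 ± 0.24 in SAH and 9.999 ± 0.055 in sham arteries (SD, n = 3 each), and the difference of 0.26 had a 95% interval of -0.06 to 0.59 (limma adjusted p = 0.447). Parp2, its closest relative in function (probe set 17698082), read 8.77, 8.70 and 8.66 in the SAH arrays, against 8.9998, 8.85 and 8.93 in the sham arrays. Every SAH value was below every sham value, as was the case for 15.4% of all genes. The means were 8.71 ± 0.06 in SAH and 8.93 ± 0.08 in sham arteries (SD, n = 3 each), and the difference of -0.22 had a 95% interval of -0.44 to 0.01 (limma adjusted p = 0.363).

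Parp8 (probe set 17745428) read 10.58, 11.21 and 11.25 in the SAH arrays, against 10.46, 10.56 and 10.42 in the sham arrays. SAH array 1 lay just above the highest sham array, and the other SAH arrays well above it. The difference was 0.53 with a 95% interval of 0.09 to 0.98 (limma adjusted p = 0.261), and without SAH array 1 it was 0.75 and passed the threshold (limma adjusted p = 0.0274). Parp6 (probe set 17844719), a close relative of Parp8, read 9.75, 9.57 and 9.67 in the SAH arrays, against 9.83, 9.82 and 9.68 in the sham arrays. Its groups overlapped, and the difference was -0.12 with a 95% interval of -0.36 to 0.12 (limma adjusted p = 0.673). The Parp6 difference was -0.07 without SAH array 4, so that its size moved by over 1.5 times.

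**Figure D1:**
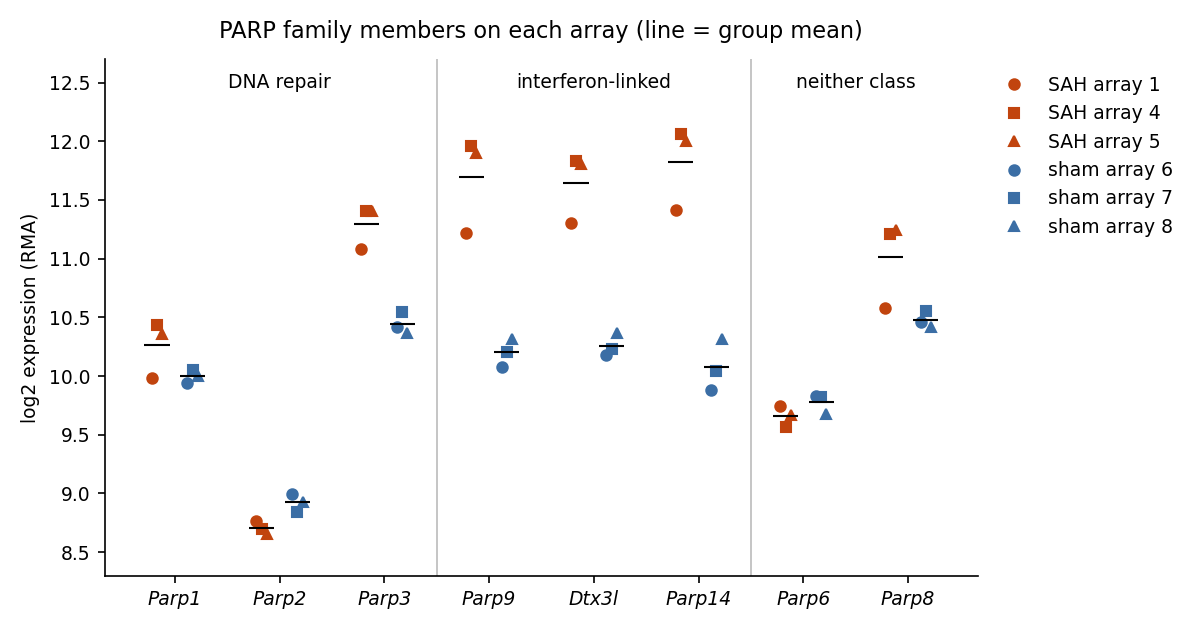
Log2 expression (RMA) of the 8 measured members on each array, with SAH arrays to the left of sham arrays for every gene and a line at each group mean (n = 3 each). Parp9, Dtx3l, Parp14, Parp3 and, by a small margin, Parp8 are higher in every SAH array than in every sham array, and Parp2 is lower. SAH array 1 is the lowest SAH array for Parp9, Dtx3l, Parp14, Parp3, Parp1 and Parp8.

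The classes were compared through each member's deviation from its own sham mean, which removes the level of the probe set. Averaged over the 3 interferon-linked members, the deviation was 1.13, 1.77 and 1.72 in SAH arrays 1, 4 and 5, against -0.13, -0.02 and 0.15 in sham arrays 6, 7 and 8. Averaged over the 3 DNA-repair members it was 0.16, 0.39 and 0.35 in the SAH arrays, against -0.00, 0.02 and -0.02 in the sham arrays. The DNA-repair average is carried by Parp3, since Parp1 and Parp2 deviated in opposite directions in SAH arrays 4 and 5. The mean difference of the interferon-linked class exceeded that of the DNA-repair class by 1.24 log2 units. This gap is a description with no p-value, because the members were grouped by known function with results of these data known.

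Each interferon-linked gene was also set against each DNA-repair gene, in 9 pairs. The difference of the first gene minus that of the second, SAH minus sham, was smallest for Dtx3l over Parp3, at 0.53, and largest for Parp14 over Parp2, at 1.96. These gaps follow from the 6 genes' own values and are a description: an exact permutation test of 3 against 3 arrays cannot give a p under 0.1. Parp3, the DNA-repair member that rose, had a smaller deviation than each interferon-linked member in each SAH array: Parp14 exceeded Parp3 by 0.70, 1.01 and 0.96 in SAH arrays 1, 4 and 5, against -0.17, -0.14 and 0.31 in sham arrays 6, 7 and 8.

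**Figure D2:**
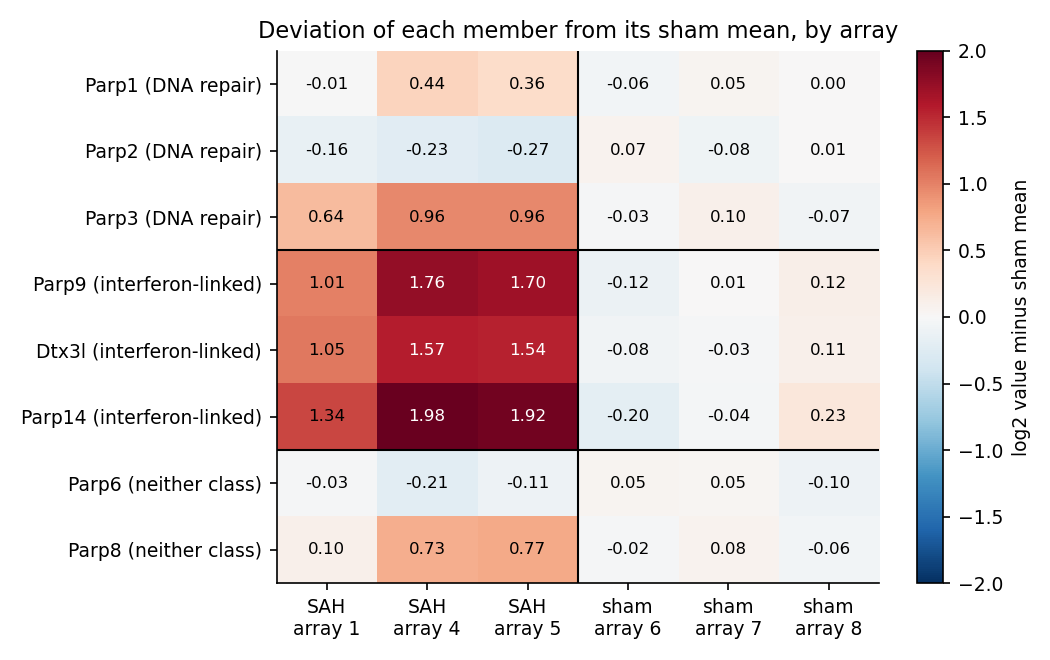
Each cell gives a member's log2 value on an array minus the gene's mean over the 3 sham arrays, with red for higher and blue for lower. The interferon-linked rows reach 1.01 to 1.98 in SAH arrays, Parp3 0.64 to 0.96, and Parp2 lies between -0.27 and -0.16.

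Among the SAH arrays, array 1 deviated least from the sham mean for every measured member. This was not particular to the members, and its share over all genes was not counted. Irf7 and Zc3hav1, described below, read 12.20 and 11.23 in SAH array 1, against 12.64 and 11.79 in array 4 and 12.67 and 11.93 in array 5. The count of all genes called was 670 without SAH array 1, against 235 with all 6 arrays. SAH array 1 stood below the mean of SAH arrays 4 and 5 by 0.71 log2 units for Parp9, and its distance from that mean was -0.61 for Parp14, -0.51 for Dtx3l, -0.65 for Parp8, -0.41 for Parp1 and -0.33 for Parp3. For Parp2 and Parp6, whose differences were negative, the distance was 0.09 and 0.13, which again placed SAH array 1 nearer to the sham mean. Without SAH array 1, Parp1 differed by 0.40 ± 0.10 (SE; limma adjusted p = 0.116), so that its size moved by over 1.5 times.

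The calls of the 4 members that rose depended on which arrays entered the fit. With any one of SAH arrays 4 and 5 and sham arrays 6 and 7 left out, none of the 4 passed. All 4 had an unadjusted p under 0.05 in limma in these fits, as had between 2167 and 2902 of 18166 genes. Without sham array 8 only Parp14 passed (adjusted p = 0.0476). Over these 5 fits the adjusted p ran from 0.0476 to 0.121 for Parp14, from 0.0627 to 0.125 for Dtx3l, from 0.0995 to 0.193 for Parp9 and from 0.128 to 0.213 for Parp3. Without SAH array 1 all 4 passed, with adjusted p from 0.00318 to 0.0139. Over the 6 fits the difference lay between 1.63 and 1.95 for Parp14, 1.36 and 1.73 for Parp9, 1.29 and 1.56 for Dtx3l, and 0.80 and 0.96 for Parp3.

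**Figure D3:**
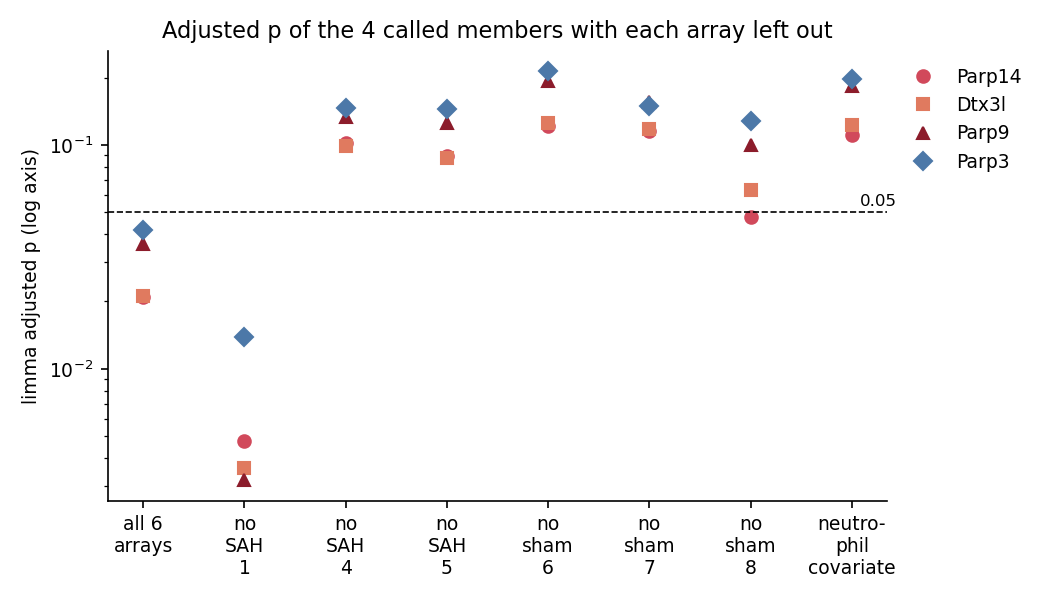
Limma adjusted p, on a log axis, of the 4 called members with all 6 arrays, with each array left out in turn, and with neutrophil signal as a covariate. The dashed line is the threshold of 0.05. The points lie under it with all arrays and without SAH array 1, and above it in the other fits except Parp14 without sham array 8.

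The remaining genes of the family were taken from a list of 8, of which 5 were measured. Zc3hav1, which encodes the zinc-finger antiviral protein and is also known as PARP13, rose 2.47-fold. It read 11.23, 11.79 and 11.93 in the SAH arrays, against 10.16, 10.38 and 10.50 in the sham arrays. The groups did not overlap, and the difference was 1.30 ± 0.20 (SE; n = 3 each; limma adjusted p = 0.0461). The call ended when array medians were subtracted (adjusted p = 0.0509) and with any array other than SAH array 1 left out (adjusted p from 0.109 to 0.214), and also with the neutrophil covariate described below. The other 4 did not pass. Parp11, a mono-ADP-ribosyltransferase, differed by 0.42 ± 0.13 (SE) and Tnks, the telomere-associated tankyrase, by -0.30 ± 0.10, with adjusted p of 0.225 and 0.256 in limma. Tnks2 and Parp16 differed by 0.05 and -0.02. The median difference of the 5 genes was 0.05, against -0.01 over all genes.

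**Figure D4:**
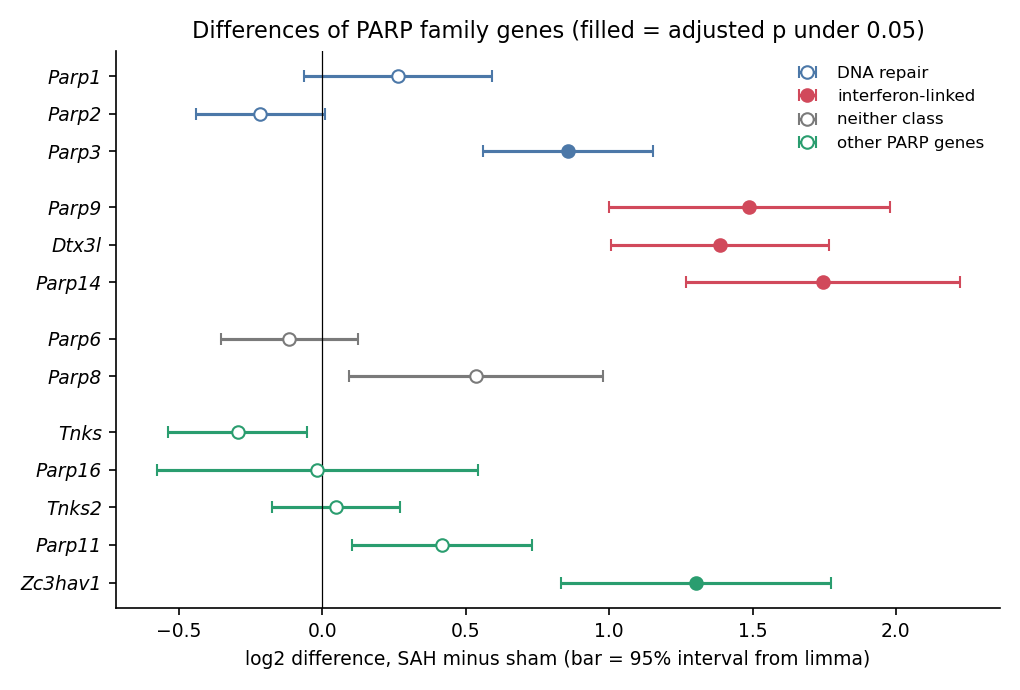
Log2 differences, SAH minus sham, of the 8 members and of 5 further genes of the family, with 95% intervals from limma (n = 3 arrays in each group). Filled points mark adjusted p under 0.05: Parp3, Parp9, Dtx3l, Parp14 and Zc3hav1.

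Genes that remove or read ADP-ribose did not pass the test. Of 11 measured none was called, with 1 at an unadjusted p under 0.05 (18.6% of all genes), and their median difference was 0.01. Parg, which degrades chains of ADP-ribose, read 9.77, 9.92 and 9.79 in the SAH arrays, against 10.02, 9.84 and 9.87 in the sham arrays, and the groups overlapped. Its difference was -0.09 with a 95% interval of -0.33 to 0.15 (limma adjusted p = 0.759). Nudt9, an ADP-ribose pyrophosphatase, differed by 0.48 ± 0.15 (SE), Aplf, a repair factor that binds ADP-ribose chains, by 0.19 ± 0.19, and Oard1, which removes ADP-ribose from proteins, by -0.18 ± 0.14, and the adjusted p in limma was 0.211, 0.718 and 0.613.

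None of 22 measured genes of base excision, single-strand break and double-strand break repair was called, with 6 at an unadjusted p under 0.05 in limma, a level that 18.6% of all genes reached. Those 6 were all lower in SAH: the DNA ligase genes Lig1 and Lig4, the scaffold gene Xrcc1, the polymerase gene Polb, Xrcc6, which encodes the end-binding protein Ku70, and Ogg1, a glycosylase for oxidised guanine, of which Lig4, Xrcc6 and Ogg1 were named after their values were known. Xrcc1, whose product is recruited by PARP1, read 8.83, 8.71 and 8.65 in the SAH arrays, against 9.15, 9.06 and 9.03 in the sham arrays. The groups did not overlap, and the difference was -0.35 ± 0.10 (SE; n = 3 each; limma adjusted p = 0.183). Lig1 differed by -0.43 ± 0.12 and Polb by -0.33 ± 0.09, where limma gave adjusted p of 0.182 and 0.186. The median over the 22 genes was 0.00, with 11 differences above 0 and 11 below.

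Of 20 measured genes for NAD synthesis and use none was called, with 6 at an unadjusted p under 0.05 in limma (18.6% of all genes). Nampt, the enzyme that recycles nicotinamide to NAD+, the substrate of the family, had the largest difference of this list. It read 11.30, 12.10 and 12.29 in the SAH arrays, against 10.31, 10.49 and 10.51 in the sham arrays. The groups did not overlap, but the difference of 1.46 ± 0.25 (SE; n = 3 each) did not pass (limma adjusted p = 0.0640). Naprt, which makes NAD+ from nicotinic acid, differed by -0.49 ± 0.13 and Ido1, the first enzyme of tryptophan breakdown, by 0.65 ± 0.18 (limma adjusted p = 0.158 and 0.183). The list's median difference was -0.06.

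The next 3 lists hold 4 measured genes each, of which 1 in each had an unadjusted p under 0.05, where 18.6% of all genes did. Among genes named in cell death downstream of PARP1 none was called. Mif, whose product is known as a nuclease in this pathway, differed by -0.58 ± 0.15 (SE), and Aifm1, apoptosis-inducing factor, by 0.15 ± 0.11 (limma adjusted p = 0.148 and 0.590). Slc25a4, a mitochondrial ADP/ATP carrier, differed by -0.16 ± 0.13 (limma adjusted p = 0.659), and the list's median was -0.06. Of the deltex genes and partners of DTX3L none was called. Dtx3, the relative of Dtx3l, differed by -0.50 ± 0.12 with groups that did not overlap (limma adjusted p = 0.134), and Usp1, a deubiquitinase, and Dtx2 by 0.38 ± 0.16 and 0.22 ± 0.10 (adjusted p = 0.358 and 0.391). The list's median was 0.11. The arginine-specific ADP-ribosyltransferases, a separate family, had no call: Art3 differed by 0.55 ± 0.18, Art4 by 0.18 ± 0.14 and Art1 by 0.13 ± 0.12 (limma adjusted p = 0.239, 0.624 and 0.681), with a median of 0.15.

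Signal transducers through which the interferon-linked members are known to be induced were described by a list of which 11 genes were measured. Of these, 3 rose, 8 were not called, and the list's median was 0.40. Irf7, an interferon regulatory factor, had the largest difference, 2.54 ± 0.15 (SE). Stat2 read 12.05, 12.27 and 12.21 in the SAH arrays, against 10.91, 11.08 and 10.84 in the sham arrays, and Irf9, its partner in the complex that binds the ISRE, read 11.27, 11.45 and 11.48 in the SAH arrays, against 10.52, 10.49 and 10.53 in the sham arrays. Neither gene's groups overlapped, and the differences were 1.23 ± 0.11 for Stat2 and 0.89 ± 0.10 for Irf9 (SE; n = 3 each; limma adjusted p = 0.00786 and 0.0180). Irf9 lost its call with any array other than SAH array 1 left out (adjusted p from 0.0678 to 0.123), and Stat2 without SAH array 4 or sham array 6 (0.0597 and 0.0682), while Irf7 passed in all 6 fits; the neutrophil covariate is treated below. Stat5a, Stat3 and Jak2 differed by 0.75 ± 0.23, 0.21 ± 0.10 and 0.40 ± 0.23 (limma adjusted p = 0.207, 0.394 and 0.483).

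Likeness to a member was measured as the root mean square distance between 2 genes' log2 profiles over the 6 arrays, each centred on its own mean. Outside the members, the 5 genes nearest to Parp14 were Trim21 at 0.05, Trex1 at 0.10, Vcan at 0.10, Nmi at 0.11 and Helz2 at 0.11, where the median over genes was 0.92. Their own differences lay between 1.65 for Nmi and 1.89 for Helz2. The 5 nearest to Parp9 were Igtp at 0.07, Irgm at 0.08, Usp25 at 0.09, Nampt at 0.10 and Tap1 at 0.11, with a median over genes of 0.81. Dtx3l stood at 0.09 from Parp9, at about the distance of these genes, and Parp14 at 0.14. Parp3 was farther from Parp9, at 0.36, and from Parp14, at 0.48. The 5 nearest to Parp1 were Or1ad5, Rab22a, Armc8, Cd209d and Arpc5, at 0.02 to 0.04, where the median over genes was 0.25, and none of them was called. These distances were computed over arrays that fall into 2 groups and describe shared size and order only.

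Markers of blood cells moved with the members in part. Over 13 measured of 16 neutrophil markers, the mean log2 value was 8.56, 8.64 and 9.48 in SAH arrays 1, 4 and 5, against 7.33, 7.48 and 9.04 in sham arrays 6, 7 and 8, and their summed log2 values ran from 111 to 123 in SAH and from 95.3 to 118 in sham arteries. None of the 13 was called, with 3 at an unadjusted p under 0.05. Sham array 8 lay within the SAH range for these markers. It was also the highest sham array for Parp9, Dtx3l and Parp14, at 10.32, 10.37 and 10.31, and stood below every SAH array for these genes. For Parp3 it was the lowest sham array, at 10.37, against 10.41 and 10.54 in sham arrays 6 and 7. Over 12 of 13 lymphocyte and natural killer cell markers the sum ran from 89.3 to 89.8 in SAH and from 82.9 to 86.1 in sham arteries, with 6 of the 12 at an unadjusted p under 0.05. Of the 12, 1 was called: Klrk1, which encodes the receptor NKG2D, rose by 2.003 ± 0.179 (SE; limma adjusted p = 0.00750), a call that ended without SAH array 4 or sham array 6 (0.0638 and 0.0577). The 13 monocyte and macrophage markers summed to 125 to 127 in SAH and 123 to 131 in sham arteries. None of these was called, but 7 of the 13 had an unadjusted p under 0.05, and they went in opposite directions: Ccr2 and Ptprc differed by 1.86 and 0.93, while Cd163, Mrc1, C1qb, Csf1r and C1qa differed by -1.29, -1.24, -0.67, -0.50 and -0.48 (limma adjusted p from 0.115 for Csf1r to 0.256 for C1qb). Of these 7, the groups overlapped for Cd163 and Mrc1. For Ccr2, sham array 8 at 9.82 stood close to SAH array 1 at 9.94, with sham arrays 6 and 7 at 7.41 and 7.65. For Ptprc, sham array 8 at 9.65 stood close to SAH array 1 at 9.71, with sham arrays 6 and 7 at 8.80 and 8.79. The sums of 6 of 8 smooth muscle markers ran from 69.1 to 70.0 in SAH and from 71.3 to 72.6 in sham arteries, with 2 of the 6 at an unadjusted p under 0.05, and Smtn fell by 1.18 on the log2 scale (limma adjusted p = 0.0197) and lost its call with either of SAH arrays 4 and 5 or either of sham arrays 6 and 7 left out (0.0701 to 0.125). No marker of endothelium (7 measured), of fibroblasts and leptomeninges (7), of red cells (3), of neurons (5) or of glia (4) was called by limma, with 3, 0, 1, 0 and 1 of them at an unadjusted p under 0.05, against 18.6% of all genes. In these bulk samples, fewer cells of a type and less RNA per cell cannot be told apart.

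The neutrophil marker average of every array was added as a covariate. None of the 4 called members passed in this fit (limma; all 4 had an unadjusted p under 0.05, as had 1913 of 18166 genes). Their differences were then 1.51 ± 0.22 (SE) for Parp14, 1.32 ± 0.25 for Parp9, 1.25 ± 0.20 for Dtx3l and 0.86 ± 0.17 for Parp3, with adjusted p of 0.110, 0.183, 0.123 and 0.198. Zc3hav1, Stat2 and Irf9 lost their calls in that fit too, with differences of 1.08, 1.28 and 0.84 (limma adjusted p = 0.218, 0.0641 and 0.119), as did Klrk1 and Smtn, with 1.87 and -1.003 (0.0731 and 0.106), while Irf7 passed (0.0300). The Parp6 difference was -0.05. The fit called 23 genes in all, against 235 without the covariate. The part of lymphocyte and smooth muscle markers in the members' differences was not tested.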

How the data were processed

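The deposited values are log2 expression values of 36685 probe sets on 6 arrays. Per the submitters' processing notes, the authors made them with Affymetrix Expression Console 1.1.2 and RMA, and the order and settings of its steps were not found in the labels. After 190 Affymetrix control probe sets were set aside, 36495 were tested. Names came from GEO's platform annotation, updated through RefSeq (GRCr8), which gave 1 gene for 18511 of them, several for 575 and none for 17409. The array's genome build is not given, so coordinates are printed for promoter windows only.

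The test of SAH against sham was limma's (version 3.58.1, R 4.3.3; lmFit with eBayes, two-sided, without covariates), and p-values were adjusted by Benjamini-Hochberg over the 36495 probe sets. A fold value is 2 raised to the log2 difference of means. RMA compresses differences near background and of bright probe sets, and the number of arrays limits the precision. The test was checked on simulated data, in which every value was drawn independently. The simulation held no shifts shared by the probe sets of an array, so it cannot address how calls depend on single arrays. The members, lists and alternatives were chosen with earlier results of these data known. The rule for named genes took all members, called list genes and up to 3 more of each list by smallest p, and the 5 genes most like Parp14, Parp9 and Parp1. Marker genes named outside this rule (Des, Tagln, Lmod1, Dcn, Smtn, Klrk1 and 7 monocyte and macrophage markers) were picked with their values in view. Parg, Parp16, Lig4, Xrcc6 and Ogg1 were also named outside this rule. The alternatives are given with their effect in the closing section.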

Additional observations from a re-analysis of the deposited data

How the results depend on the processing

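The 8 members kept their direction under all 14 alternatives, but not every alternative could change it. The filter on dim probe sets, trended and robust eBayes and the threshold of 0.10 leave a difference as it is. The mean of all probe sets of a gene gave the members the same differences as the main fit. The looser threshold also could not remove a call. Under the filter on dim probe sets, repeated quantile normalization, subtracted array medians, array weights, trended and robust eBayes, a threshold of 0.10 and the mean of all probe sets of a gene, the count of interferon-linked members called stayed at 3 and that of DNA-repair members at 1. With an array left out the first count lay between 0 and 3 and the second between 0 and 1. With the neutrophil covariate both were 0. In that fit limma gave 3 interferon-linked members and 1 DNA-repair member at an unadjusted p under 0.05, as it did 1913 of 18166 genes. The gap between the classes of 1.24 lay between 1.17 and 1.37 with an array left out and was 1.07 with the covariate. The spread of the gap between arrays of a group was 0.196 (SD). Leaving out 1 of 3 arrays cannot move the gap by that much, so this spread is no yardstick for those fits. The count of all genes called, 235, was 672 with the filter on dim probe sets, 363 with trend and robust options, 373 with array weights, 530 at an adjusted p under 0.10, 23 with the covariate and 29 to 670 with an array left out. The count at 0.10 comes from the same fit and follows from the looser threshold. Fewer probe sets were tested under the filter and fewer arrays when one was left out. The cause of the shifts with trend and robust options, array weights and the covariate was not tested. No paired analysis was possible because the SAH and sham arrays share no replicate number. Each group holds 3 arrays, and signal over background could not be judged per array from the deposited values.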
